A study of Danio rerio with 8 samples.

Results

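The Period genes and the clock repressor genes that answer to light or to the clock itself were examined in the cornea of adult zebrafish, set against the epidermis of the skin. The 9 genes were chosen by symbol (per1a, per1b, per2, per3, nr1d1, nr1d2a, nr1d2b, bhlhe40 and bhlhe41), and 8 of them had probes, 13 in all, among 14462 genes with a symbol and 45220 features on the array. nr1d2b had no probe under its own name in the annotation and is not analysed here. Cornea RNA and epidermis RNA of the AB2O2 wild type strain were hybridised together on 2-colour arrays in 4 biological repeats. Each repeat was hybridised on 2 arrays that differed in which tissue carried which dye. Corneae came from 30 eye globes per repeat, and the epidermis came with scales scraped from 10 fish, so each repeat is a pool of animals and the skin side holds scale cells. No gene was altered and no animal was treated in either tissue. The hour of dissection and the lighting of the fish are not given in the sources used here.

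The circadian clock of vertebrates is a feedback loop in which the activators Clock and Bmal drive the genes of their own repressors, the Period and Cryptochrome proteins. The Rev-erb receptors (nr1d genes) repress Bmal transcription in turn, and the Dec proteins (bhlhe40 and bhlhe41) repress genes that Clock and Bmal activate. Zebrafish are known for clocks in most peripheral tissues that are set by light directly, and per2 is one of the genes that light induces in zebrafish cells. The transcript levels of these genes cycle through the day. The hour and lighting of dissection are not given, so tissue and time or light at dissection cannot be told apart in the ratios below.

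All values are log2 ratios of cornea over epidermis, so that 1 unit is a doubling, and they are differences between the tissues and not levels. No source states the direction of the deposited ratios. Cornea was taken as the numerator because the labels name it first and because cornea genes lay above 0. All 7 measured of 8 cornea markers (pax6a, pax6b, six3a, kera, dcn, foxc1a and tgfbi) were called higher, with a median of 3.26. The study counts these markers among its cornea genes, which it drew in part from these arrays. Their calls therefore show the order the study used and are not independent evidence of a higher level in cornea. By quantitative PCR the study also reports pax6a, pax6b and six3a higher in cornea, but against dermis and not epidermis. A gene is called here when its mean over the 4 repeats differed from 0 at an adjusted p under 0.05 by limma with Benjamini-Hochberg adjustment over all genes. Gene names depend on a turned probe grid, which was recovered by comparing probes of the same gene. Over 5098 genes, r between the first 2 probes was 0.361 on the turned grid and 0.0191 on the feature numbers as given. The grid was recovered through this same agreement, so the higher r is not separate evidence for the gene names. Markers of other cell types are read beside all genes, of which 22.9% were called higher and 13.8% lower. Without adjustment, 3977 of the 14462 genes were higher and 2672 lower at a limma p under 0.05. Of 23 photoreceptor genes 4 were called higher and 0 lower, with 5 and 2 at an unadjusted limma p under 0.05 (median 0.07). Of 14 skeletal muscle genes 7 were called higher and 1 lower (median 0.76), and of 10 genes of scale-forming osteoblasts 1 was called higher and 4 lower (median −0.30). Lens genes had 1 called higher and 2 lower of 15, and those of ionocytes and mucous cells 2 and 1 of 5. The photoreceptor and lens shares called higher, at 17.4% and 6.67%, were below that of all genes. Shares called higher were above it for skeletal muscle (50%) and for ionocytes and mucous cells (40%). Shares called lower were above the 13.8% of all genes for scale-forming osteoblasts (40%), erythrocytes (25%) and ionocytes and mucous cells (20%). The 4 photoreceptor genes called higher were gnat2 (2.69), gngt1 (1.625), opn1lw1 (1.505) and gngt2a (0.59), and the other 19 were not called. gnat2, gngt1 and opn1lw1 lay above 0 on all 8 arrays. Of 8 erythrocyte genes 0 were called higher and 2 lower, with 0 and 4 at an unadjusted limma p under 0.05. The part of these cells in the clock gene values was not tested. In tissue RNA, fewer cells of a type and less RNA per cell cannot be told apart.

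Among the clock repressors, per2, nr1d2a and bhlhe41 were higher in cornea and none was called lower. The light-induced repressor gene per2 stood at 1.61 ± 0.39 (SD, n = 4 repeats here and below), a 3.05-fold difference, and the Rev-erb gene nr1d2a stood at 1.49 ± 0.43, or 2.82-fold. The Dec gene bhlhe41 followed at 0.63 ± 0.20, or 1.55-fold. The other 5 genes lay between −0.24 (per1a) and 0.34 (per3) and were not called. By limma, 3 of the 8 genes were called higher, where 22.9% of all genes were, and 0 were called lower, where 13.8% of all genes were. At an unadjusted limma p under 0.05 the counts were also 3 and 0, beside 3977 and 2672 of all 14462 genes. The median of the 8 genes was 0.29, against 0.03 over all genes. On all 8 arrays, 4 of them (per2, nr1d2a, bhlhe40 and bhlhe41) lay above 0, as did 21.8% of all genes, and 0 lay below 0, as did 13.0% of all genes.

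**Figure D1:**
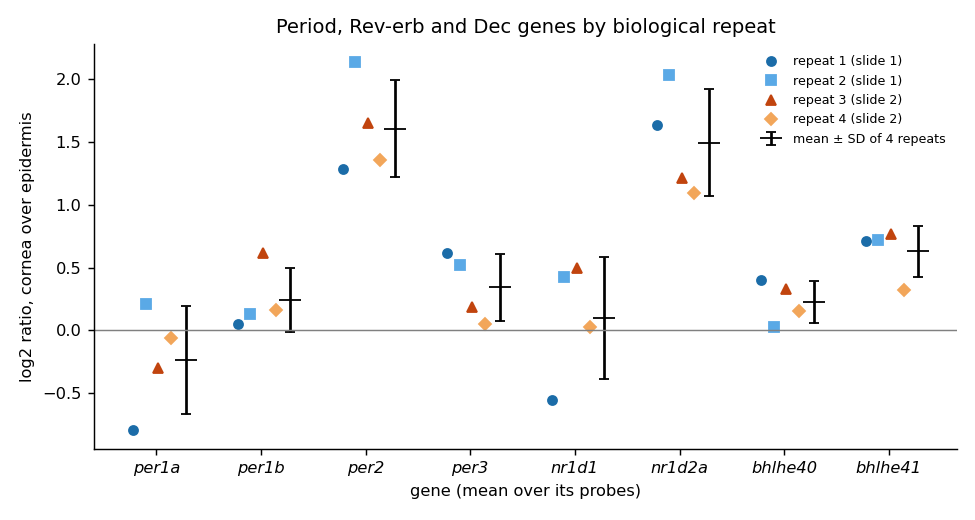
Log2 ratios of cornea over epidermis (vertical axis) for the 8 measured clock genes (horizontal axis), with 1 point per biological repeat and the mean ± SD of the 4 repeats as a bar. Every repeat of per2 and nr1d2a lies above 1, while the repeats of per1a, per1b, per3, nr1d1 and bhlhe40 lie between −0.80 and 0.62.

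The Period genes, whose products are the classical repressors of Clock and Bmal, did not move as a block. For per2 the repeats stood at 1.28, 2.13, 1.65 and 1.36. On single arrays its lowest value was 0.99, in repeat 1 with cornea in Cy5, and its highest 2.16, in repeat 2 with cornea in Cy3. No array came near 0, and the tissues differed by about the same amount in both dye orientations, with a mean of 1.5 with cornea in Cy5 and 1.71 with cornea in Cy3. The adjusted p of limma was 0.000826 and the 95% interval ran from 1.19 to 2.02. Within slide 1 per2 stood at 1.71 and within slide 2 at 1.503. per2 was measured by 1 probe (37588), and it stands on the cornea gene list that the study drew in part from these arrays, so its call here is not independent evidence of its direction.

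per3 and per1b, 2 further Period genes, lay slightly above 0. The repeats of per3 were 0.61, 0.52, 0.19 and 0.05, with 7 of 8 arrays above 0 (mean 0.34 ± 0.27, adjusted p = 0.114 by limma, 95% interval −0.01 to 0.69). Both repeats of slide 1 were above both repeats of slide 2 for this gene, with means of 0.57 and 0.12, and the slide difference did not pass the test (adjusted p = 1.00 by limma). With 2 repeats per slide, this test called 0 of all genes, so it cannot decide whether the slides differed. For per1b the repeats stood at 0.05, 0.13, 0.62 and 0.16, with a mean of 0.24 ± 0.26 and an adjusted p = 0.237 by limma. The gene mean of per1b hides a pair of unlike probes. Probe 27489 stood at 0.83, 0.22, 1.23 and 0.36 (mean 0.66 ± 0.46, adjusted p = 0.0660 over all features by limma), and probe 20041 stood at −0.73, 0.04, 0.01 and −0.03 (mean −0.18 ± 0.37).

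per1a was the one gene of the 8 with a mean below 0. Its repeats were −0.80, 0.21, −0.30 and −0.06, so the repeats lay on both sides of 0 (mean −0.24 ± 0.43, adjusted p = 0.365 by limma, 95% interval −0.68 to 0.21). The probes of per1a differed in kind. Probe 9480 stood at −1.47, 0.49, −0.49 and −0.74, with repeat 2 alone above 0 in both dye orientations. Probe 11079 gave 0.30, 0.85, 0.15 and 1.74 with cornea in Cy5 and −0.54, −0.998, −0.37 and −0.49 with cornea in Cy3 in the same repeats. All 4 arrays of one orientation lay above 0 and all 4 of the other below it, so the sign of this probe followed the dye, and its mean was 0.08 ± 0.36. On arrays with cornea in Cy5 the probe lay 0.68 ± 0.41 above the mean of both orientations (adjusted p = 0.381 by limma). Of the 13 probes 0 had a called dye deviation of this kind, where 0.467% of all features did.

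**Figure D2:**
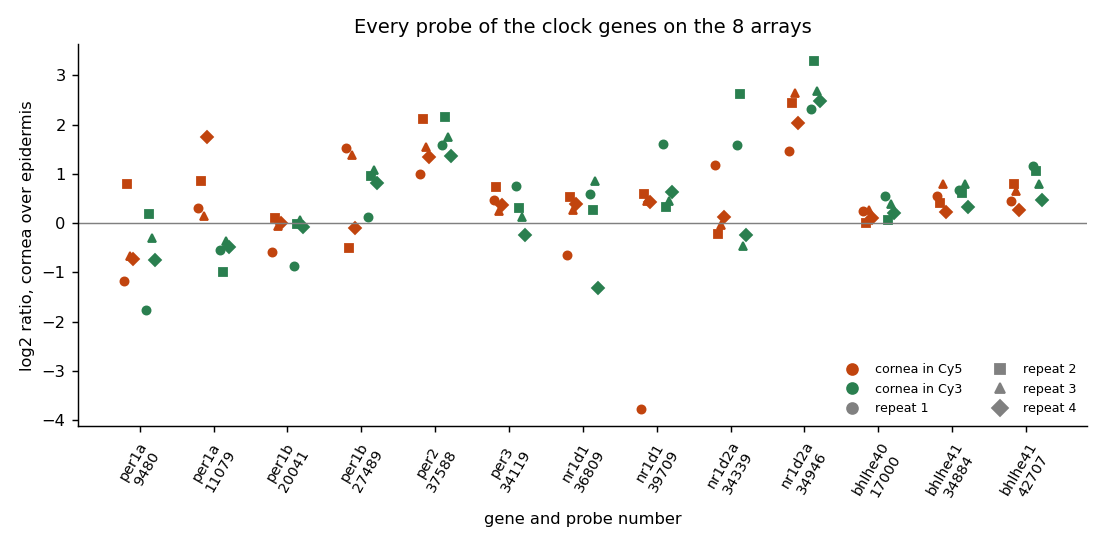
Log2 ratios of cornea over epidermis (vertical axis) on each of the 8 arrays for the 13 probes of the clock genes (horizontal axis, gene and probe number), with colour for the dye that cornea carried and shape for the repeat. Probe 34946 of nr1d2a and the probe of per2 lie above 0 on every array, probe 11079 of per1a separates by dye, and a single array places probe 39709 of nr1d1 at −3.78.

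Of the Rev-erb genes, which encode haem-binding repressors of Bmal transcription, nr1d2a differed between the tissues and nr1d1 gave no call. nr1d2a stood at 1.64, 2.03, 1.21 and 1.096 in the 4 repeats, and at 1.07 or more on each of the 8 arrays. All repeats lay well above 0, and the adjusted p of limma was 0.00135 (95% interval 1.05 to 1.94). Within slide 1 the mean was 1.84 and within slide 2 it was 1.15. The probes of nr1d2a again differed. Probe 34946 stood at 1.89, 2.86, 2.67 and 2.25, which is a mean of 2.42 ± 0.43 or 5.34-fold (adjusted p = 0.000526 over all features by limma), and 98.7% of all features had a lower mean. Probe 34339 stood at 1.39 and 1.202 in the repeats of slide 1 and at −0.25 and −0.06 in those of slide 2. The value of repeat 2 averaged −0.22 with cornea in Cy5 and 2.63 with cornea in Cy3. Its mean was 0.57 ± 0.84 (adjusted p = 0.254 by limma), and the slide difference of 1.45 had an adjusted p = 1.00 by limma. The slide test sets 2 repeats against 2 and called 0 of all genes, so it cannot decide whether the slides differed. With slide as a term, the mean of probe 34339 had an adjusted p = 0.0638 by limma. The size of the nr1d2a ratio and its call therefore depend on the probe. The probe means were 0.57 and 2.42, only probe 34946 was called, and the gene mean lies between them.

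nr1d1 stood at −0.55, 0.43, 0.50 and 0.02 in the 4 repeats (mean 0.10 ± 0.48, adjusted p = 0.736 by limma, 95% interval −0.38 to 0.58). On the array of repeat 1 with cornea in Cy5, probe 39709 stood at −3.78, while the other 7 arrays of this probe lay between 0.32 and 1.61. Probe 36809 had 6 of 8 arrays above 0 and −1.33 in repeat 4 with cornea in Cy3. Its mean was 0.11 ± 0.46, and that of probe 39709 was 0.08 ± 0.78. With repeat 1 taken from its array with cornea in Cy3 alone, a choice made after seeing the data, nr1d1 stood at 0.51 (adjusted p = 0.0977 by limma). With repeat 1 left out, nr1d1 stood at 0.32 (adjusted p = 0.182 by limma), and with repeat 3 left out at −0.03.

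The Dec genes encode basic helix-loop-helix repressors that compete with Clock and Bmal at E-box sites. bhlhe41 (Dec2) stood at 0.71, 0.72, 0.76 and 0.32, and all 8 arrays lay above 0. Its repeats 1 to 3 were within 0.1 of each other and repeat 4 lay lower, yet the mean of 0.63 differed from 0 (adjusted p = 0.0115 by limma, 95% interval 0.31 to 0.95). The call was lost with repeat 3 left out (0.58, adjusted p = 0.0572 by limma). Both of its probes pointed the same way, with means of 0.55 ± 0.22 (probe 34884, adjusted p = 0.0496 over all features by limma) and 0.71 ± 0.24 (probe 42707, 0.0218). Probe 34884 was not called with any 1 repeat left out, within either slide or in either dye orientation. Of these settings, probe 42707 was called only without repeat 4 and with cornea in Cy3. bhlhe40 (Dec1) stood at 0.40, 0.03, 0.33 and 0.15, again with all 8 arrays above 0, the lowest at 0.000831. Its mean was only 0.23 ± 0.17 and did not pass the test (adjusted p = 0.214 by limma, 95% interval −0.08 to 0.53).

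Counted by probe, 4 of 13 were called higher over all features by limma, where 14.0% of all features were, and 0 were called lower, where 10.4% were. These 4 were the probe of per2, probe 34946 of nr1d2a and both probes of bhlhe41. At an unadjusted limma p under 0.05 the counts were 5 and 0, with probe 27489 of per1b in addition. No count over all features was taken at this unadjusted limit, so these 5 stand without a background. Of the 5 genes with 2 probes, only bhlhe41 had both probes called. How often this happened over all genes was not counted. The count of probes called higher was 2 with repeat 1, repeat 2 or repeat 3 left out, 1 within slide 1 and 2 within slide 2. Fewer of all genes were called higher in these settings too. Their count fell from 3315 to 2975, 2819 and 2502 without repeats 1, 2 and 3, to 1400 within slide 1 and to 2190 within slide 2. The share over all features was not counted in these settings.

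Gene copies were compared within each repeat, per1a with per1b and bhlhe40 with bhlhe41. The log2 ratio of per1a minus that of per1b was −0.85, 0.07, −0.92 and −0.22 in the 4 repeats, a mean of −0.48 ± 0.48 (two-sided exact sign-flip permutation test, p = 0.25). Its size depended on the dye, at −0.06 with cornea in Cy5 only and −0.89 with cornea in Cy3 only. For bhlhe40 minus bhlhe41 the differences were −0.31, −0.69, −0.44 and −0.17, all below 0, with a mean of −0.40 ± 0.22 (two-sided exact sign-flip permutation test, p = 0.13). With 4 repeats this rounded value is the smallest p this test can give, and after Benjamini-Hochberg adjustment over the 2 pairs both values of the exact test were 0.25. The tests thus leave unsettled whether the members of either pair differ in their tissue ratio.

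Ordered by the mean, the genes ran per2, nr1d2a, bhlhe41, per3, per1b, bhlhe40, nr1d1 and per1a. per2 and nr1d2a had overlapping repeats, and between bhlhe41 and its neighbour per3 the repeats also overlapped, as they did between all lower neighbours. Between nr1d2a and bhlhe41 the repeats were apart, with the lowest repeat of nr1d2a at 1.096 and the highest of bhlhe41 at 0.76. Among all genes with a symbol, 96.0% had a lower mean than per2, 95.2% a lower one than nr1d2a and 81.4% a lower one than bhlhe41. For the other 5 genes the share ranged between 29.4% (per1a) and 70.2% (per3). The SD between repeats was above the median SD of all genes (0.31) for per1a, per2, nr1d1 and nr1d2a, and below it for per1b, per3, bhlhe40 and bhlhe41.

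**Figure D3:**
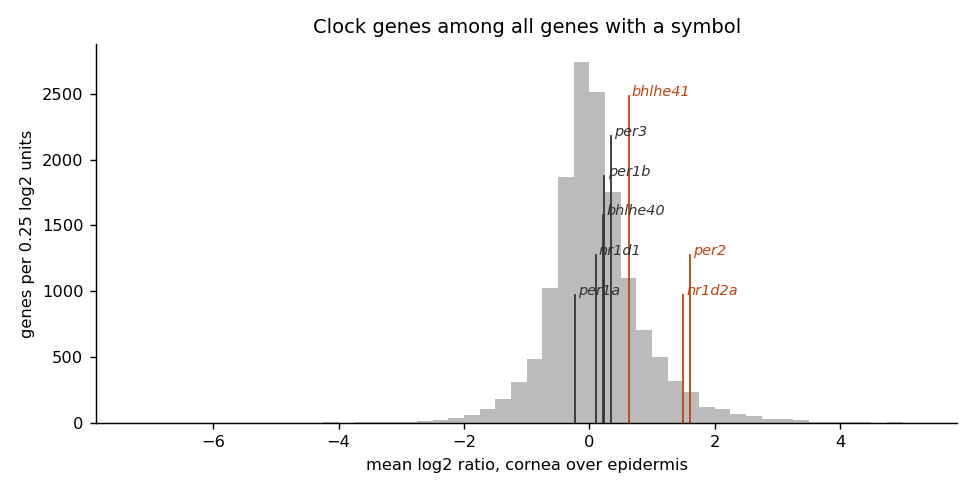
Distribution of the mean log2 ratio of cornea over epidermis (horizontal axis) for all 14462 genes with a symbol, as genes per bin (vertical axis), with a vertical line for each clock gene, red where called higher in cornea and dark where not called. per2 at 1.61 and nr1d2a at 1.49 lie in the right shoulder, bhlhe41 at 0.63 lies closer in, and the other 5 genes lie in the central mass. The heights of the lines only separate the names.

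Nearest to per2 over the 8 arrays, by the Euclidean distance between log2 ratios, were trpc4apb (distance 0.465, mean 1.64), tmem41aa (0.524, mean 1.62) and slc38a2 (0.528, mean 1.67). Nearest to per1a, the gene with the lowest mean, were wnt8-2 (0.727, mean −0.15), atp6v0e1 (0.821, mean −0.30) and tmem120ab (0.840, mean −0.21). The arrays of a repeat were taken to share their RNA, so these distances are read as describing 4 independent samples.

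The rest of the clock was followed in 7 lists, with 62 of 115 listed symbols measured. In all 18 were called higher in cornea and 5 lower, which is 29.0% and 8.06% beside the 22.9% and 13.8% over all genes, and the median was 0.19. Without adjustment, 22 were higher and 5 lower at a limma p under 0.05, beside 3977 and 2672 of all 14462 genes. The count called higher was 10 with repeat 4 left out and 11 with repeat 2 or repeat 3 left out. The count called lower was 3 with repeat 4 left out. Counts over all 14462 genes fell too, from 3315 higher to 2466 without repeat 4, 2819 without repeat 2 and 2502 without repeat 3. Those called lower fell from 1994 to 1352 without repeat 4.

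Cryptochromes and photolyases, a family of flavoproteins that holds both clock repressors and light-driven DNA repair enzymes, had 6 of 8 members called higher and 0 lower (6 and 0 at an unadjusted limma p under 0.05). These shares were 75% and 0%, where 22.9% of all genes were called higher and 13.8% lower. The median of the list was 0.60. cry4 stood at 1.57, 1.84, 1.58 and 1.89, with no repeat far from the others (mean 1.72 ± 0.17, adjusted p = 0.000227 by limma). cry2 stood at 0.89, 1.34, 1.37 and 1.29 (mean 1.22 ± 0.22, adjusted p = 0.000901 by limma). cry4 and cry2 lay above 0 on all 8 arrays. The remaining members ranged between 0.18 (cry1b) and 0.97 (cry3b), among them cry5, the 6-4 photolyase gene, at 0.40 ± 0.11 and the CPD photolyase gene cpdp at 0.50 ± 0.21, both called. Each of these calls rested on 1 of 2 probes. For cry5 the called probe stood at 0.91 and the other at −0.11, and for cpdp the called probe stood at 1.22 and the other at −0.22, below 0 on all 8 arrays. For cry1b the probes were called in both directions, at −0.98 and 1.34, so its gene mean of 0.18 stands for neither.

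The PAR bZIP factors activate genes with D-box elements, through which light acts on per2 in zebrafish, and nfil3 proteins repress at the same elements. Of 8 such genes 4 were called higher and 1 lower (median 0.51). These shares were 50% and 12.5%, beside 22.9% and 13.8% over all genes. tefa stood at 1.65, 2.00, 1.88 and 1.83 (mean 1.84 ± 0.14, adjusted p = 0.000174 by limma), close together and above 0 on all 8 arrays. Of its 3 probes, however, the means were 3.31, 2.79 and −0.58, with the last called lower. tefb (0.79 ± 0.30), hlfa (0.75 ± 0.33) and nfil3-2 (0.71 ± 0.16) were called higher as well, although nfil3-2 had probes at 1.297 and 0.12 of which only the higher was called, and nfil3 was called lower (−0.65 ± 0.24, below 0 on all 8 arrays). nfil3-6, with a gene mean of 0.26, had 1 probe at 2.23 and the others at −0.75 and −0.71, all called.

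Of the 6 activators, which drive the Period, Rev-erb and Dec genes, 1 was called higher, bmal1a at 0.55 ± 0.32, and 0 lower (3 and 0 at an unadjusted limma p under 0.05). The share called higher was 16.7%, where 22.9% of all genes were. clocka and clockb stood at 0.58 ± 0.51 and 0.43 ± 0.36, and npas2 at −0.50 ± 0.75, none of them called. Probe 1368 of clockb was called higher on its own, at 0.86 with all 8 arrays above 0, while its probe 22457 stood at −0.0098. The ROR receptors, which activate Bmal at the elements where Rev-erb represses it, had 1 of 3 called higher (roraa, 0.44 ± 0.21) and 0 lower (1 and 0 at an unadjusted limma p under 0.05). Their shares of 33.3% and 0% stood beside 22.9% and 13.8% over all genes. Neither probe of roraa was called over all features, at 0.31 and 0.57 (adjusted p = 0.2185 and 0.0846 by limma).

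Of the kinases, ubiquitin ligases and partners of the clock proteins, 3 of 14 were called higher and 2 lower (median 0.04). These shares, 21.4% and 14.3%, were near the 22.9% and 13.8% of all genes. fbxl3a, for the F-box protein that marks cryptochromes for degradation, stood at 0.61, 1.02, 1.62 and 1.33 (mean 1.15 ± 0.43, adjusted p = 0.00399 by limma). This call was lost with cornea in Cy3 only (0.94, adjusted p = 0.0782 by limma), within slide 1 (0.81, adjusted p = 0.0948 by limma), and with repeat 1 taken from its array with cornea in Cy3 alone (0.97, adjusted p = 0.0513 by limma). csnk1e, for a kinase that phosphorylates Period proteins, stood at −0.96, −1.33, −1.06 and −0.87, below 0 on all 8 arrays (mean −1.06 ± 0.20, adjusted p = 0.00139 by limma). Its relative csnk1da was called higher at 0.48 ± 0.26.

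Light-induced DNA repair genes had 1 of 5 called higher (xpc, 0.67 ± 0.29, with probes at 1.04 and 0.31) and 1 lower. Each share was 20%, where 22.9% of all genes were called higher and 13.8% lower. neil1, a DNA glycosylase gene, was the lower one, at −1.61, −1.18, −1.29 and −1.52 (mean −1.40 ± 0.20, adjusted p = 0.000501 by limma), below 0 on all 8 arrays. Of 18 non-visual opsins and related photopigment genes 2 were called higher (rgra at 0.81 ± 0.23 and opn6a at 0.56 ± 0.17) and 1 lower (opn5 at −0.58 ± 0.41), with a median of −0.05. These opsin shares, 11.1% and 5.56%, were below those of all genes. The melanopsin genes opn4a, opn4xb and opn4.1 were not called, with means between −0.38 and 0.28. Among the 25 listed genes with at least 2 probes, 3 (cry1b, tefa and nfil3-6) had probes called in both directions. The share over all 5098 genes with at least 2 probes was not counted, so whether this is usual on the array is not known. The single probes of bmal1a, csnk1da and opn5 were not called over all features (adjusted p = 0.0700, 0.0853 and 0.0804 by limma).

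**Figure D4:**
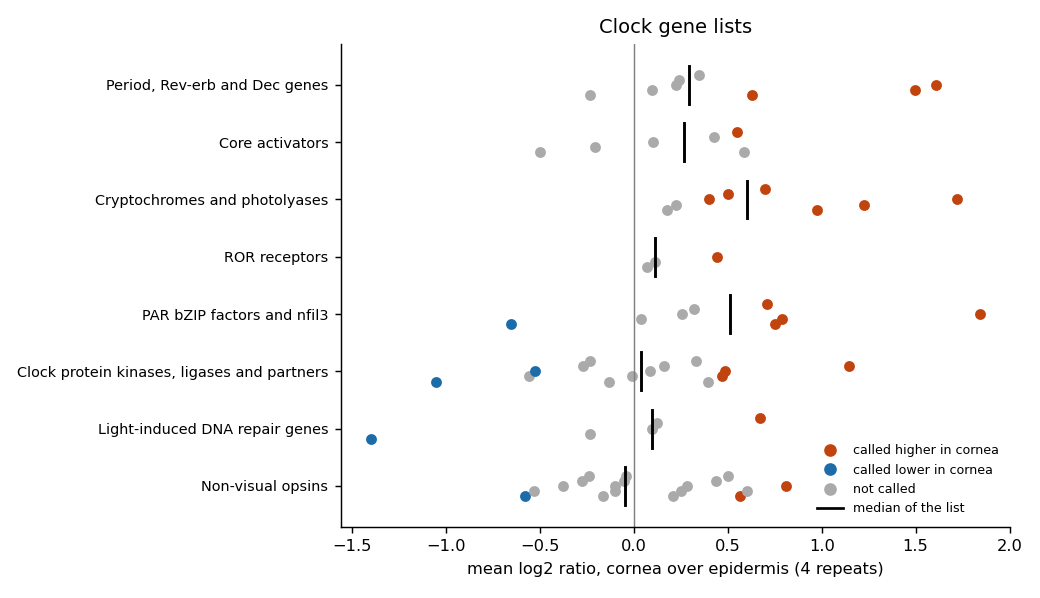
Mean log2 ratio of cornea over epidermis over 4 repeats (horizontal axis) for each gene of the Period, Rev-erb and Dec set and of the 7 other clock lists (rows), with colour for the call and a vertical bar for the median of each row. The row of cryptochromes and photolyases lies wholly above 0, that of PAR bZIP factors and nfil3 genes has a median of 0.51, and the medians of the kinases, repair genes and opsins lie between −0.05 and 0.10.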

How the data were processed

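The authors read the spots with GenePix and processed them in limma, by minimum background correction, normalisation within arrays, and a quantile step on the average intensities (Aquantile) across arrays. The deposited values are log2 ratios by limma's convention, since the base is not stated with them, already turned to 1 order of the tissues, because dye-swapped arrays of a repeat correlated at r between 0.390 and 0.515. All 45220 features had values on all 8 arrays. No spot intensities were used here, so probes at background or saturation could not be recognised, and the number of arrays limits the precision.

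Feature numbers were paired with a platform annotation through the rearranged grid, and 13752 of 14462 gene IDs matched a RefSeq gene, with 0 symbols changed. Probes of 1 gene were averaged. So were the 2 arrays of each repeat, which were taken to share their RNA, so that n = 4. Genes and features, control spots included, were each tested two-sided for a mean other than 0 by lmFit and eBayes (limma 3.58.1, R 4.3.3). Dye deviations and slide differences were fitted likewise, chosen after the data had been seen. The labels give both arrays of a repeat the same number and mark the dye-swap, but do not state that they share RNA. Shared RNA was assumed because the study describes its dye swaps as technical repeats. Array deviations from their orientation mean had r of 0.0213 to 0.0899 inside a repeat, against −0.0924 to 0.0370 between different repeats. These ranges overlapped and lay near 0, so they do not settle the pairing. Python 3.11.15 with numpy 2.4.6, pandas 2.3.3 and matplotlib 3.10.9 made the summaries and figures.

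Members, lists and alternatives were chosen with earlier results of these data known. Named are all members, listed clock genes called with a mean log2 ratio of at least 1 in size, the 3 genes nearest to the highest and lowest member without clone-style names, and further listed genes chosen after their values were seen.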

Additional observations from a re-analysis of the deposited data

Results flagged for a closer look

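In 27 groups of 4 repeats (8 clock repressor genes, their 13 probes and 6 further clock genes), 5 had a repeat far from the other repeats. Chance gives about 1 in 20 independent groups. These groups are not independent, because the gene values are means of the same probes. For per2, per3 and bhlhe40, with 1 probe each, the same values were counted as gene and as probe. bhlhe41 stood at 0.32 in repeat 4, against 0.71 to 0.76 in the others. cry2 stood at 0.89 in repeat 1, against 1.29 to 1.37 in the others. Probe 11079 of per1a stood at 0.63 in repeat 4, where its array with cornea in Cy5 was at 1.74. Probe 20041 of per1b stood at −0.73 in repeat 1, with its arrays at −0.59 (cornea in Cy5) and −0.87 (cornea in Cy3). Probe 39709 of nr1d1 stood at −1.08 in repeat 1, with its array with cornea in Cy5 at −3.78.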

How the results depend on the processing

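The gene calls of per2 and nr1d2a held with any 1 repeat left out, within either slide and in either dye orientation. They also held in a fit of all 8 arrays with dye and the replicate block as terms. For nr1d2a this rested on probe 34946, which was called over all features in each of these settings. Probe 34339 was called in none of them. Tested over all features, the probe of per2 was not called within slide 1 (1.71, adjusted p = 0.0528 by limma). With the replicate block 3 of the 8 genes were called higher, the same number as without it, and 3473 of all genes. Gene names rest on the grid. With feature numbers as given, 1 of the 8 genes and 1 of the 13 probes were called higher and 2 probes lower, 9 listed clock genes were called higher and 1944 of all genes. Signs then turned for per1b (−0.24), nr1d2a (−0.36), bhlhe40 (−0.51), bhlhe41 (−0.10), cry2 (−0.0326), cry4 (−0.0534), csnk1e (0.0855) and neil1 (1.98), and for probes 11079 (−0.0286), 27489 (−0.29), 39709 (−1.21), 34339 (−0.39), 34946 (−0.33), 17000 (−0.51) and 42707 (−0.34). per2 stood at 0.97. In this pairing r between the first 2 probes of a gene was 0.0191. If the turned grid is right, these values come from other spots, so they do not test the named genes.

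The stricter threshold of the study was an adjusted p under 0.001 together with a difference above 2-fold, from both dermis and epidermis. The study kept only genes shared by its array designs and names a test relative to a threshold in its methods. Here the same limits were set on the limma fit above, against epidermis alone, so the counts are not those of the study. At this threshold 1 of the 8 genes (per2) and 1 probe (34946 of nr1d2a) remained. The probe of per2 did not remain, with an adjusted p = 0.00184 over all features by limma. Of the listed clock genes 3 higher and 1 lower remained, and of all genes 960 higher and 315 lower. Within slide 1, called counts were 1 probe, 4 listed genes higher and 2 lower, and 1400 of all genes higher and 639 lower. Within slide 2 they were 2 probes, 7 listed genes higher, and 2190 of all genes higher and 1224 lower. With cornea in Cy5 only, 2 probes, 8 listed genes and 2605 of all genes were called higher. With 1 repeat left out, between 2 and 3 probes were called higher, between 10 and 16 listed genes higher and between 3 and 5 lower. Over all genes, between 2466 and 2975 were then called higher and between 1329 and 1879 lower.

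Genes and probes without a call also changed sign. With cornea in Cy5 only, per1a stood at 0.16, nr1d1 at −0.22 and probe 39709 at −0.58, and with cornea in Cy3 only, probe 11079 stood at −0.60. With the probe of smallest variance per1a stood at 0.0814, per1b at −0.18 and their difference at 0.26, and nr1d2a at 2.42. Within slide 1 nr1d1 stood at −0.0643, probe 11079 at −0.10 and probe 39709 at −0.31, and within slide 2 probe 34339 stood at −0.16. With 1 repeat left out, nr1d1 ranged between −0.0348 and 0.32, probe 11079 between −0.10 and 0.15, probe 20041 between −0.25 and 0.0055, probe 36809 between −0.0350 and 0.31 and probe 39709 between −0.0620 and 0.47. With repeat 1 taken from its array with cornea in Cy3 alone, chosen after seeing the data, probe 11079 stood at −0.0242 and 3 of the 8 genes were called higher. bhlhe41 was not called within slide 1 (0.71, adjusted p = 0.121) or slide 2 (0.54, adjusted p = 0.121). The cause of these changes was not tested.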

Other observations

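nr1d4a and nr1d4b, fish relatives of the Rev-erb genes outside the chosen set and named after the annotation had been seen, were not called. nr1d4a stood at −0.05, −0.37, 0.78 and 1.08 (mean 0.36 ± 0.68), below 0 in both repeats of slide 1 and above 0 in both of slide 2. nr1d4b stood at −0.36, −0.24, 0.15 and −0.03 (mean −0.12 ± 0.22).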
